A study of Mus musculus with 12 samples.

Results

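The genes that encode the proteasome were described in mouse livers and cultured hepatocytes in which the serine hydrolase ABHD6 was raised or lowered. Members were the protein-coding genes of the deposited table whose names carry the Psma, Psmb, Psmc or Psmd root followed by a number, together with Psme1, Psme2, Psme3 and Psme4. This gave 43 of the 56748 genes in the table. A member was kept in a system where each of its 6 libraries held at least 10 counts, which left 41 members in livers and 42 in hepatocytes. The members left out were Psma8, a testis form of an alpha subunit, with 6 to 9 counts in the livers, and Psmb11, the thymus beta subunit, with 0 or 1 count in any library.

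Poly-A RNA was sequenced from 4 groups of 3 samples. Both liver groups came from C57BL/6 mice kept for 8 weeks on a high fat diet in which fat supplied 60% of calories. The ABHD6 OE livers carry the genotype label LABHD6 OE, and the series text describes this overexpression as an adeno-associated virus (AAV8-TBG-ABHD6) given by the tail vein, in which the TBG promoter directs expression to hepatocytes. The GFP livers are labelled WT, and the labels do not name the vector that carried GFP or the age of the mice. The cultures were primary hepatocytes with the treatment label "no treatment": the siScramble cultures, labelled WT, received a scrambled siRNA, and the siABHD6 cultures, labelled ABHD6 knockdown, an siRNA against ABHD6. The library names call the replicates of all 4 groups "biol rep", but no label says that the hepatocyte replicates came from separate preparations. Their p-values therefore measure the spread between these libraries only, and that spread may be technical.

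The proteasome is the protease that degrades proteins tagged with ubiquitin in the cytosol and nucleus. Its barrel-shaped 20S core has outer rings of alpha subunits, which gate the entry, and inner rings of beta subunits, of which Psmb5, Psmb6 and Psmb7 carry the active sites. The 19S regulatory particle caps the core: its base holds the Psmc ATPases that unfold the substrate, and its lid removes ubiquitin. Interferon induces the replacement subunits Psmb8, Psmb9 and Psmb10, which take the places of Psmb5, Psmb6 and Psmb7 in the immunoproteasome and favour peptides suited to MHC class I, and it induces the PA28 cap of Psme1 and Psme2. The transcription factor Nfe2l1 raises proteasome subunit genes together when proteasome activity falls.

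Library totals lay between 12295733 and 16234658 counts, of which the 43 members held 0.283% to 0.311% in livers and 0.581% to 0.606% in cultures. Abhd6 itself, in CPM, the count over the effective library size set across the 6 libraries of a system, measured 36.9, 33.7 and 33.8 in siScramble and 4.94, 5.26 and 5.07 in siABHD6 cultures. It measured 43.9, 38.9 and 24.5 in GFP livers and 183, 104 and 154 in ABHD6 OE livers, so the groups were apart in both systems in the direction of the labels. The 10 hepatocyte markers were all detected, summing to 69592 to 113919 CPM by library total in livers and 17793 to 18604 in cultures. Livers GFP 3 and ABHD6 OE 1 stood apart by the share of Alb, the albumin gene, at 4.88% and 3.83% of counts against 7.54% to 8.68% in the other livers. The 13 leukocyte markers summed to 38.8 to 107 CPM by library total in livers and to 0.896 to 1.41 in cultures, where the T cell markers Cd3e and Cd3g had 0 counts in every library.

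In cultured hepatocytes, knockdown of Abhd6 left most of the proteasome genes within a narrow band, and 6 members fell. These were the active-site subunit Psmb5, the immunoproteasome subunit Psmb10, the lid subunits Psmd11 and Psmd14, and the activators Psme2 and Psme4. The call of Psme2 was lost when its near-identical copy was added, and no member rose. The falls were small, from 0.17 to 0.30 on the log2 scale. The 6 called of 42 tested made 14.3%, all lower, where 15.4% of the 13449 genes tested were called in either direction, 7.61% lower and 7.81% higher (edgeR's quasi-likelihood test, Benjamini-Hochberg adjusted p under 0.05 over all genes tested). The share called in either direction was thus near that of the whole table. At an unadjusted p under 0.05 there were 7 members, against 27.0% of all genes. Groups did not overlap for 3 members with higher and 8 with lower means in siABHD6 cultures, against 15.7% and 15.5% of all genes (31.2% together). No member was called with a log2 fold change of 1 or more in size, which 0.714% of all genes were. The median log2 fold change of the members was -0.03 against -0.00 over all genes, and their median absolute log2 fold change was 0.041 against 0.117. All genes were not matched to the members for expression level, so the smaller size may not be particular to the proteasome.

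Psmb5, the constitutive subunit with chymotrypsin-like activity, is encoded on the minus strand of chromosome 14. Its CPM was 113, 121 and 127 in siScramble and 99.7, 93.9 and 99.5 in siABHD6 cultures. Every siABHD6 culture lay below every siScramble culture, and the log2 fold change was -0.30 ± 0.05 (SE; edgeR's quasi-likelihood test, adjusted p = 0.000129). The other constitutive active-site subunits were not called: Psmb6, with caspase-like activity, had a log2 fold change of -0.07 and Psmb7, with trypsin-like activity, of 0.03. Of the 14 constitutive core subunits, Psmb5 alone was called, and the log2 fold changes of the 14 ran from -0.30 to 0.12 with a median of 0.02. At the upper end stood Psmb3, a structural beta subunit, with 85.3, 91.7 and 89.98 CPM in siScramble and 99.7, 96.4 and 94.96 in siABHD6 cultures. The groups of Psmb3 did not overlap, but its adjusted p was 0.0670 in edgeR.

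In the lid, all 8 log2 fold changes were below 0, as were 29 of the 42 members tested, and 2 lid genes were called. The log2 fold change of Psmd12 was -0.0008, well within its SE of 0.05. Psmd11, a scaffold subunit that also contacts the base, had 167, 159 and 164 CPM in siScramble and 140, 140 and 142 in siABHD6 cultures. Its log2 fold change was -0.22 ± 0.04 (SE; edgeR, adjusted p = 0.000616). Psmd14 encodes the metalloprotease that cuts ubiquitin chains off the substrate as it enters. It had 108, 110 and 110 CPM in siScramble and 97.1, 93.0 and 98.2 in siABHD6 cultures, a log2 fold change of -0.19 ± 0.04 (SE; edgeR, adjusted p = 0.00384). In both genes the groups lay apart by more than the spread within either. The 6 other lid genes were not called, and neither was any of the 7 alpha subunits, the 6 base ATPases, the 3 other base subunits or the 3 base assembly chaperones.

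Among the activators, Psme4 fell, and the count of Psme2 could not be separated from that of a copy gene. Psme4 encodes PA200, a single-chain cap found in the nucleus. Its CPM was 357, 355 and 364 in siScramble and 316, 306 and 336 in siABHD6 cultures, a log2 fold change of -0.17 ± 0.04 (SE; edgeR, adjusted p = 0.00470). Psme2, the beta subunit of PA28, had 95.1, 83.4 and 90.3 CPM in siScramble and 81.4, 74.9 and 70.9 in siABHD6 cultures, a log2 fold change of -0.24 ± 0.06 (SE; edgeR, adjusted p = 0.00477). The copy Psme2b on chromosome 11, which is no member, moved the other way, from 44.3, 58.9 and 51.9 to 59.7, 69.9 and 63.4 CPM, with a log2 fold change of 0.32 ± 0.08 (SE; edgeR, adjusted p = 0.00852). The sum of both was 139, 142 and 142 CPM in siScramble and 141, 145 and 134 in siABHD6 cultures. With the copies summed the call was lost, at a log2 fold change of -0.01 and an adjusted p of 0.894 in edgeR. The labels do not state how the authors' counting divided reads between the copies. Psme1, the alpha subunit of PA28 and the partner of Psme2, measured 169, 181 and 166 CPM in siScramble and 168, 172 and 165 in siABHD6 cultures, and Psme3, the nuclear PA28 gamma subunit, measured 131, 123 and 124 against 118, 127 and 123. The groups of both overlapped.

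**Figure D1:**
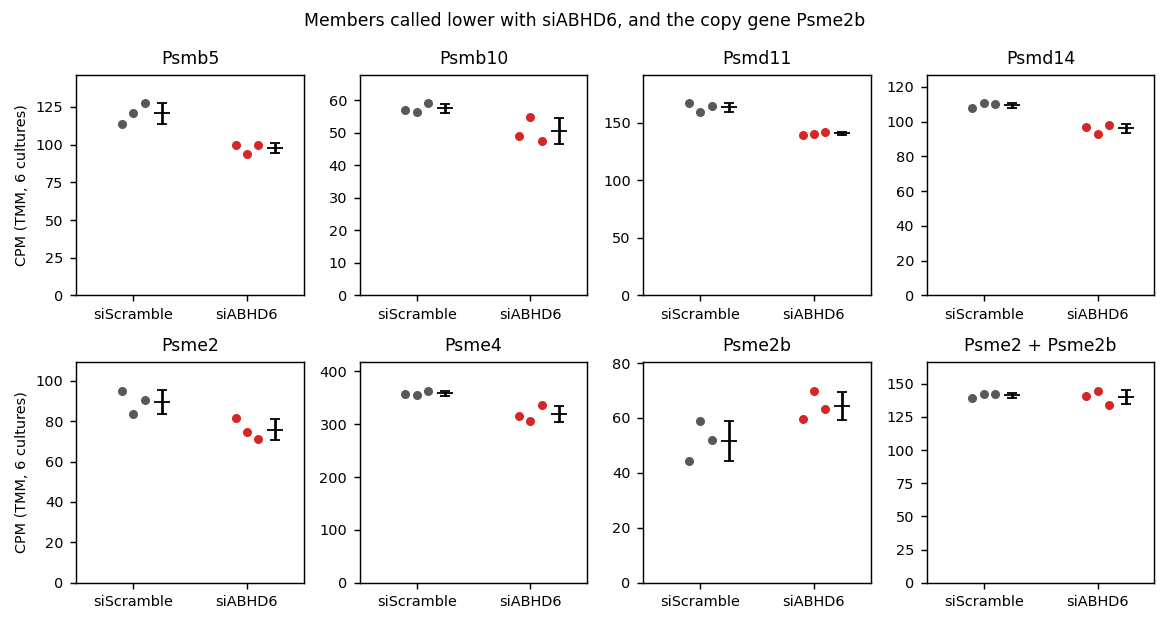
CPM (vertical axes, from 0) of the members called lower with siABHD6 and of the copy gene Psme2b, with 1 point per library and 3 libraries per group. The groups of Psmb5, at 113 to 127 and 93.9 to 99.7, lie apart, and Psme2 and Psme2b move in opposite directions.

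Of the immunoproteasome beta subunits, Psmb10 was called lower, at 56.9, 56.5 and 59.0 CPM in siScramble and 49.1, 54.9 and 47.4 in siABHD6 cultures. Its log2 fold change was -0.18 ± 0.06 (SE; edgeR, adjusted p = 0.0413), and the call was lost when any library except siABHD6 2 was left out, with adjusted p up to 0.169, and in DESeq2, with an adjusted p of 0.0996. Psmb8 measured 69.6, 75.0 and 65.9 CPM in siScramble and 67.8, 73.7 and 63.0 in siABHD6 cultures. Psmb9 measured 21.6, 23.1 and 24.9 against 23.8, 24.9 and 18.8. The groups of Psmb8 and of Psmb9 overlapped, and both log2 fold changes were -0.04, with 95% intervals from -0.17 to 0.08 and from -0.25 to 0.17. The 5 calls other than Psmb10 held without any single culture. In an edgeR fit over all 12 libraries, which pools the spread of the cultures with that of the livers, none of the 6 was called, with adjusted p from 0.431 to 0.973, and on the deposited FPKM Psmb10, Psme2 and Psme4 were not called.

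The 250 bases before the gene start are known in RefSeq (build GRCm38.p6) for 36 of the 43 members, in 39 windows, and were searched on both strands for letters that resemble binding motifs. TGANNNNGC, the core of the antioxidant response element that Nfe2l1 and Nfe2l2 recognise, was found in 15 windows, which is 38.5% of the members' windows against 35.2% of 32851 windows of all genes. The interferon-stimulated response element, written as GAAA, a pair of any bases and GAAA, was found in 3 windows, which is 7.69% against 2.98%. These were windows of Psmb3, Psmd4 and Psmd9, none of which is an interferon-induced subunit named above. TTCNNNGAA, letters of STAT sites that read the same on both strands, was found in 1 window, that of Psmb8, which is 2.56% against 7.02%. Of the 6 members called lower with siABHD6, Psmb5 and Psme2 held the first motif. Only members with a match could be shown. Psmd8, Psmd10 and Psme1, on which later comparisons also turn, had no match or no window, and the match of Psmd5 is not printed. The stretches of Psmb5 and Psme2 are shown beside those of Psmb9, Psmb8 and Psmd9, each read 5′ to 3′ on the gene's strand with the matching letters in capitals.
Psmb5, chr14:54618023-54618052, minus strand: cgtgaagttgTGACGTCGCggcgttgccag
Psme2, chr14:55591069-55591098, minus strand: cagcccctgaTGATGAAGCcaacaccgccc
Psmb9, chr17:34187371-34187400, minus strand: ccttgcgcgaTGATGGGGCggggcctcagt
Psmb8, chr17:34198088-34198117, plus strand: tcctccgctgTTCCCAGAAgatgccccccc
Psmd9, chr5:123228149-123228178, plus strand: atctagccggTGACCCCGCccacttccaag
Psmd9, chr5:123228021-123228050, plus strand: gggacagaatGAAAAAGAAAggaatgaaca
These matches are a description of letters in a window and are not binding sites. Among all members with the first motif were also Psma4, Psma6, Psmb3, Psmb6, Psmc2, Psmc6, Psmd1, Psmd12 and Psmd5.

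In livers, overexpression of ABHD6 was followed by no call among the 41 members tested, and none reached an unadjusted p under 0.05. Over all 13910 genes the same test called 0 (0%), and 301 genes (2.16%) had an unadjusted p under 0.05. DESeq2 called 8 genes, none of them a member, and the smallest adjusted p of any member over the 20 alternatives run was 0.658. The log2 fold changes of the members ran from -0.19 to 0.16 with a median of -0.01, 23 below and 18 above 0. The 95% intervals of the members reached a median of 0.28 to each side on the log2 scale and 0.85 for Psmb8, so changes of the size seen in the cultures were not detectable at this spread. Abhd6 itself, 4.12-fold higher in ABHD6 OE livers, was not called either (edgeR, unadjusted p = 0.00015, adjusted p = 0.9995). The variation between replicates, as edgeR's biological coefficient of variation, reached 28.1% among livers against 4.93% among cultures.

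The lowest p among members with lower means belonged to Psmd5, a chaperone of base assembly. It had 41.1, 37.0 and 36.0 CPM in GFP livers and 34.7, 33.6 and 32.6 in ABHD6 OE livers, a log2 fold change of -0.18 ± 0.10 (SE; edgeR, unadjusted p = 0.128). Psmd14 followed, at 51.9, 44.1 and 53.3 against 49.2, 39.5 and 41.9 CPM (log2 fold change -0.19), and then Psmb2, a structural beta subunit, at 45.3, 40.8 and 46.6 against 43.9, 39.4 and 39.7 (log2 fold change -0.11). Psmd5 was the only one of the 41 kept members whose ABHD6 OE livers all lay below the GFP livers. It shares 573 bases with Cutal on the opposite strand. Cutal measured 58.5, 56.6 and 55.6 CPM in GFP livers and 48.8, 41.6 and 50.2 in ABHD6 OE livers. The part of Cutal reads in the Psmd5 value was not tested.

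Among members with higher means, Psme1 had the lowest p, at 53.3, 61.6 and 60.5 CPM in GFP livers and 68.2, 63.5 and 64.9 in ABHD6 OE livers. Its log2 fold change was 0.16 ± 0.10 (SE; edgeR, unadjusted p = 0.153), and it was the only one of the 41 kept members whose ABHD6 OE livers all lay above the GFP livers. Groups did not overlap in 3.22% of all genes with higher and 3.53% with lower means in ABHD6 OE livers (6.75% together). Psme4 measured 129, 129 and 121 CPM in GFP and 149, 128 and 132 in ABHD6 OE livers (log2 fold change 0.11), and Psme2 measured 27.4, 21.9 and 23.2 against 25.4, 25.1 and 27.9 (log2 fold change 0.11). Psme3 measured 56.9, 56.9 and 71.7 against 64.1, 57.3 and 59.1 CPM, with a log2 fold change of -0.04.

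The immunoproteasome genes were uneven within the liver groups. Psmb8 measured 16.6, 15.2 and 34.3 CPM in GFP livers and 27.0, 13.98 and 19.9 in ABHD6 OE livers. Psmb9 measured 19.5, 16.8 and 29.0 against 22.1, 14.6 and 26.7 CPM, and Psmb10 measured 25.1, 28.6 and 38.2 against 32.5, 28.5 and 31.8. Livers GFP 3 and ABHD6 OE 1, the pair with the low albumin share, held the highest Psmb8 and Psmb10 of their groups. Their leukocyte marker sums were 41.3 and 63.4 CPM by library total, whereas ABHD6 OE liver 2, with the highest sum of 107, had the lowest Psmb8 and Psmb9 of all livers. The part of cell makeup in these values was not tested, and in bulk tissue fewer cells of a type cannot be told apart from less RNA per cell. With both livers left out the log2 fold change of Psmb8 was 0.09 in place of -0.12. The constitutive counterparts also overlapped between the liver groups: Psmb5 measured 61.2, 48.5 and 57.6 against 54.0, 57.4 and 52.3 CPM, Psmb6 measured 83.0, 73.9 and 94.1 against 88.7, 82.9 and 85.2, and Psmb7 measured 74.7, 58.7 and 65.1 against 71.5, 63.2 and 72.0.

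**Figure D2:**
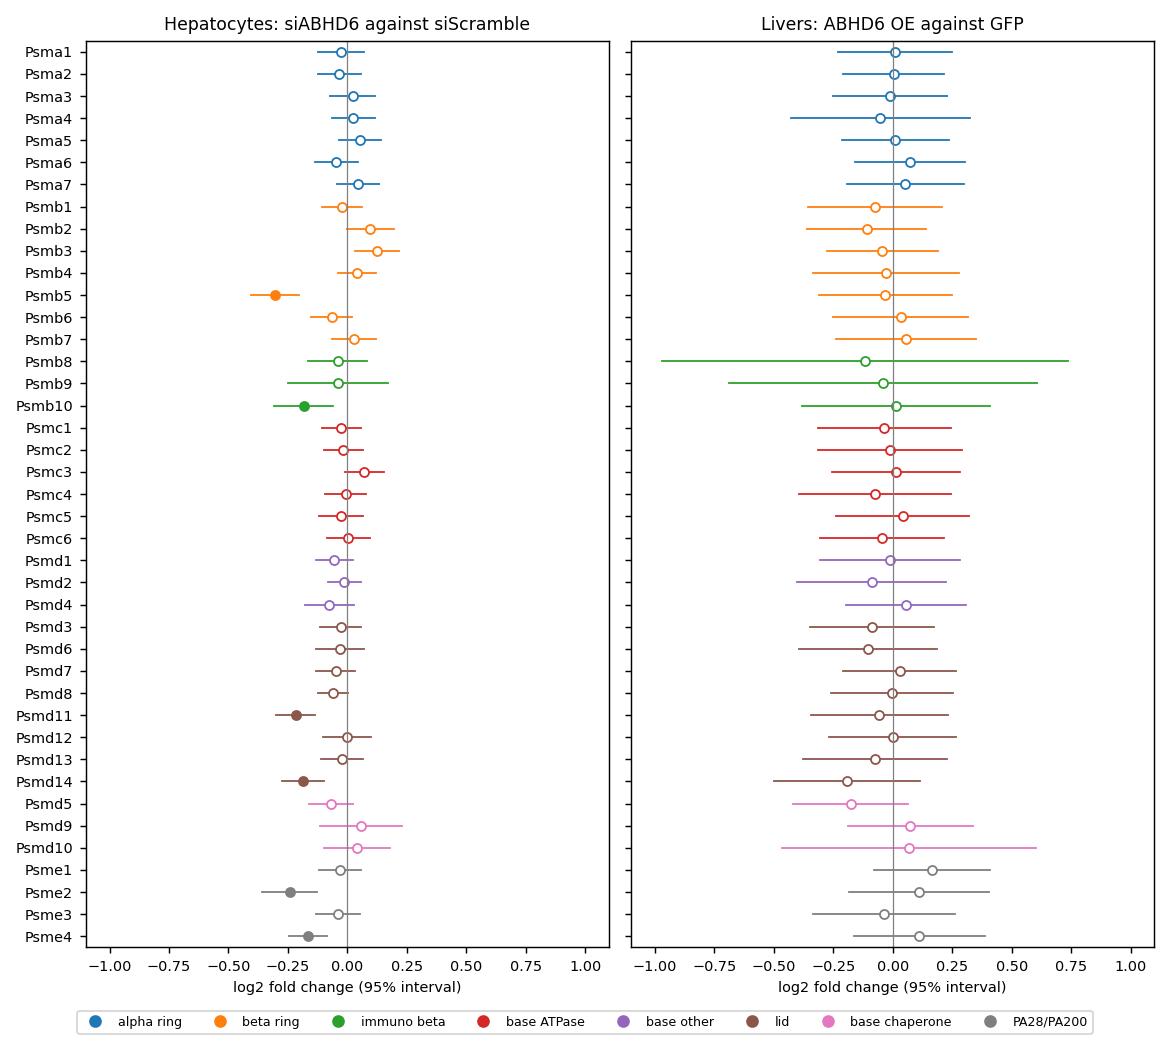
Log2 fold change (horizontal axis) with its 95% interval for each kept member, with siABHD6 against siScramble cultures and ABHD6 OE against GFP livers in separate panels, coloured by role. Intervals in cultures are narrower, with a median reach of 0.090 to each side against 0.28 in livers, and the members called lower lie left of 0 in the culture panel.

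The 2 control groups, siScramble cultures and GFP livers, differ in culture, GFP or siRNA, cell makeup and any batch at once, and these cannot be told apart. The labels give a diet for the livers only, so any difference in diet cannot be told apart from these either. The control groups are also the reference groups of both comparisons above. In this comparison 10 of 42 members tested were higher in cultures and 11 lower. The 50% called compare with 70.3% of 14215 genes tested (33.3% higher and 36.9% lower), and the same 21 members had an unadjusted p under 0.05, against 72.8%. Groups did not overlap for 12 members with higher and 15 with lower means in cultures, against 37.6% and 38.8% of all genes (76.4% together). The members called with a log2 fold change of at least 1 in size were Psmd8, Psmd10, Psme2 and Psmd9, against 43.6% of all genes. The median absolute log2 fold change of the members was 0.23, against 0.88 over all genes, again not matched for expression level. Scaling by library total in place of the trimmed mean of M values raised the median log2 fold change of all genes by 0.83, and 40 members were then called higher and 1, Psmd9, lower. Values below are relative to the trimmed mean, in CPM scaled over these 6 libraries.

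Psmd8, a lid subunit, stood far from the rest. Its CPM was 148, 136 and 132 in GFP livers and 657, 646 and 650 in siScramble cultures, a 4.69-fold difference. The log2 fold change was 2.23 ± 0.10 (SE; edgeR, adjusted p = 3.25e-06). The other 7 lid genes had between -0.32 (Psmd12) and 0.32 (Psmd14), so Psmd8 lay outside the range of its complex. Psmd12, a scaffold of the lid, had 96.5, 88.5 and 96.3 CPM in GFP livers and 76.8, 74.0 and 75.0 in cultures. As a ratio to the geometric mean of the 14 core subunits in the same library, which needs no scaling between libraries, Psmd8 was 2.40 higher on the log2 scale in cultures (exact permutation test, two-sided p = 0.1, the smallest that 3 against 3 allows). Most kept members reached the same p, for example Psma2 at a difference of 0.12, so the test does not set Psmd8 apart.

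The 3 base assembly chaperones, which escort the ATPases into the ring, moved in different directions. Psmd10, known as gankyrin, had 9.60, 9.98 and 15.7 CPM in GFP livers and 27.3, 28.1 and 28.5 in cultures, a log2 fold change of 1.25 ± 0.19 (SE; edgeR, adjusted p = 0.000964). Psmd5 had 53.9, 49.0 and 47.5 against 86.1, 83.4 and 82.2, a log2 fold change of 0.74 ± 0.08 (SE; edgeR, adjusted p = 0.000161). Psmd9 was lower in cultures, at 52.1, 48.4 and 46.6 CPM in GFP livers and 18.7, 19.8 and 22.4 in cultures, a log2 fold change of -1.27 ± 0.10 (SE; edgeR, adjusted p = 3.92e-05). Psmd9 shares 10921 bases of chromosome 5 with Hpd, a tyrosine-degrading liver enzyme on the opposite strand, which measured 1738 ± 186 CPM in GFP livers and 6.94 ± 1.87 in cultures (SD, n = 3 each). The labels do not state whether the counting used strand, and the part of Hpd reads in the Psmd9 value was not tested. Psmd5 likewise overlaps Cutal on the opposite strand. In all, 8 members share bases with a gene of at least 100 counts: Psma2, Psmb7, Psmb9, Psmc3, Psmd5, Psmd9, Psmd13 and Psme1. Psmb7 shares 6571 bases with Nek6 on the opposite strand, which reached 3298 counts in a culture against 1389 for Psmb7. Nek6 was called higher with siABHD6 (log2 fold change 0.13, edgeR, adjusted p = 0.0413). The part of these overlaps in the values of Psmb7 and the shares that use it was not tested.

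The caps were higher in cultures in 3 of 4 genes. Psme2 had 35.9, 29.0 and 30.7 CPM in GFP livers and 71.2, 62.7 and 67.7 in cultures, a log2 fold change of 1.07 ± 0.10 (SE; edgeR, adjusted p = 9.99e-05). With the copy Psme2b added the log2 fold change was 0.81 (edgeR, adjusted p = 0.000258). Psme1 had 69.8, 81.5 and 80.0 against 126, 136 and 124 CPM, a log2 fold change of 0.74 ± 0.09 (SE; edgeR, adjusted p = 0.000366), so both chains of PA28 were higher. Psme4 had 169, 171 and 160 against 267, 267 and 273 CPM, a log2 fold change of 0.69 ± 0.08 (SE; edgeR, adjusted p = 0.000305). Psme3 was not called, with a log2 fold change of 0.22.

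The immunoproteasome beta subunits did not move together. Psmb8 had 21.7, 20.1 and 45.3 CPM in GFP livers and 52.1, 56.4 and 49.5 in cultures, a log2 fold change of 0.86 (edgeR, adjusted p = 0.0353). Psmb9 had 25.5, 22.2 and 38.3 against 16.2, 17.4 and 18.7, a log2 fold change of -0.72 (edgeR, adjusted p = 0.0162) that became 0.13 under the library total. Psmb10 had 32.8, 37.9 and 50.4 against 42.6, 42.4 and 44.3 and was not called. The call of Psmb8 held in 1 of 6 fits that left out a library, the one without GFP liver 3, where the log2 fold change was 1.34, and the call of Psmb9 held in 4 of 6. The leukocyte markers, from cells known for immunoproteasome expression, summed to at most 1.13 CPM by library total in siScramble cultures and to at least 41.3 in GFP livers. The 7 Kupffer cell markers summed to 80.3 to 87.1 in siScramble cultures and 185 to 297 in GFP livers, the 7 endothelial markers to 19.7 to 22.3 and 137 to 241, the 6 stellate cell markers to 2.70 to 3.31 and 90.8 to 321, and the 4 cholangiocyte markers to 46.0 to 48.8 and 6.71 to 9.74. The sum of the Kupffer cell markers hides a split. In edgeR 6 of the 7 were called lower in cultures and 1 higher (median log2 fold change -7.39, range -11.8 to 2.57). All 10 hepatocyte markers were called lower in cultures too (median log2 fold change -4.11, range -7.81 to -1.29). The 7 endothelial, the 6 stellate cell and the 4 leukocyte markers tested were also called lower, and the 2 cholangiocyte markers tested were called higher. Of all genes, 36.9% were called lower and 33.3% higher. The endothelial marker Clec4g was at 0 in every siScramble culture, and the part of these cell types in the values was not tested.

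In the core, 4 alpha subunits and 3 constitutive beta subunits were called lower and Psmb5 was called higher, and under the library total all 14 log2 fold changes were above 0. Psma4, an alpha subunit, had 125, 128 and 164 CPM in GFP livers and 97.7, 95.8 and 90.5 in cultures, a log2 fold change of -0.55. Psma3 had 87.0, 85.3 and 90.6 against 65.7, 65.3 and 62.2 (log2 fold change -0.44), and Psmb1 had 144, 136 and 155 against 110, 111 and 106 (log2 fold change -0.41). None of the 6 ATPases and none of Psmd1, Psmd2 and Psmd4, the other base subunits, was called. Of the 21 calls in this comparison, 10 held without any single library: those of Psma3, Psma4, Psmb1, Psmd5, Psmd8, Psmd9, Psmd10, Psme1, Psme2 and Psme4.

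**Figure D3:**
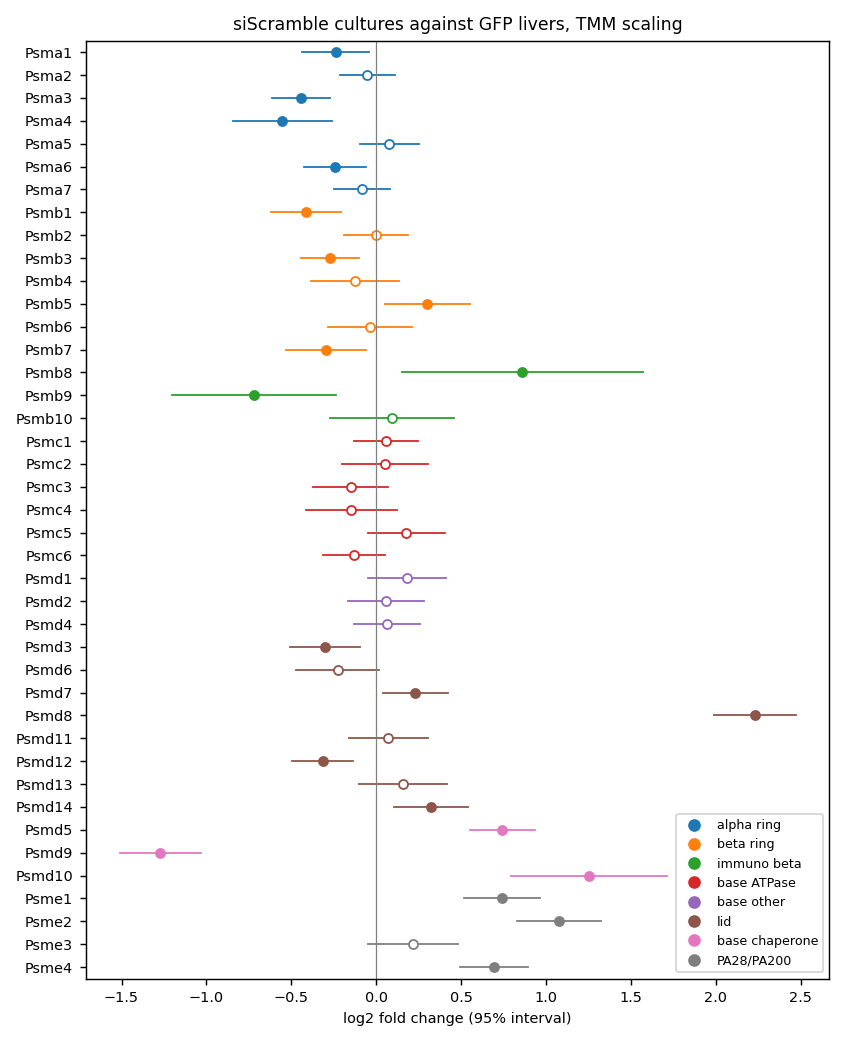
Log2 fold change (horizontal axis) with its 95% interval for each member in siScramble cultures against GFP livers, 3 libraries each, coloured by role. Psmd8 at 2.23 and Psmd9 at -1.27 lie at the ends, and most core subunits lie just below 0, a side that turns under scaling by library total.

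Levels were set against each other per kilobase of the principal transcript and CPM over all 12 libraries, scaled by the trimmed mean. Differences between livers and cultures depend on that scaling. The geometric mean of the core was 94.5, 87.6 and 98.1 CPM in GFP livers and 84.2, 85.6 and 83.9 in siScramble cultures. By library total it was 73.7, 69.4 and 67.6 in GFP livers and 111, 112 and 110 in siScramble cultures. The 14 core subunits spanned a 5.36-fold range in GFP livers and a 5.95-fold range in siScramble cultures, although each core particle holds equal numbers of them. In GFP livers the highest members were Psmb6 at 137 ± 16.9 and Psmb4, a structural beta subunit, at 132 ± 16.7 (SD, n = 3), which did not differ beyond their spread. In siScramble cultures Psmd8 was first at 427.5 ± 2.94, followed by Psmb6 at 136 ± 1.71 and Psmb4 at 123 ± 2.68, and in GFP livers Psmd8 was at 89.6 ± 5.28 in 8th place. At the lower end of the 41 members kept in both systems were Psmd10 in GFP livers, at 8.18 ± 2.40, and Psmd9 in siScramble cultures, at 7.91 ± 0.744. Psma8, kept in cultures alone, lay below all of them at 0.539 ± 0.131. By role, the median level in GFP livers was 83.6 for the alpha ring, 82.0 for the constitutive beta ring, 63.1 for the ATPases, 50.6 for the lid and 21.1 for the immunoproteasome beta subunits. In siScramble cultures these medians were 72.1, 88.2, 64.5, 54.6 and 32.7. In ABHD6 OE livers they were 84.0, 79.4, 62.0, 51.0 and 20.5, and in siABHD6 cultures 71.7, 83.4, 64.4, 52.9 and 29.5. Dividing by the table's gene length gave a core median of 39.4 in GFP livers against 82.8 by the principal transcript, so the numbers depend on the length used. The order depends on it too. With the table's length Psma6 and Psmb5 came first in GFP livers and Psmb6 in place 6, and the role medians were 34.0 for the alpha ring, 48.2 for the constitutive beta ring, 47.2 for the ATPases, 30.6 for the lid and 8.55 for the immunoproteasome subunits. Psmd8 was first in siScramble cultures with either length.

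**Figure D4:**
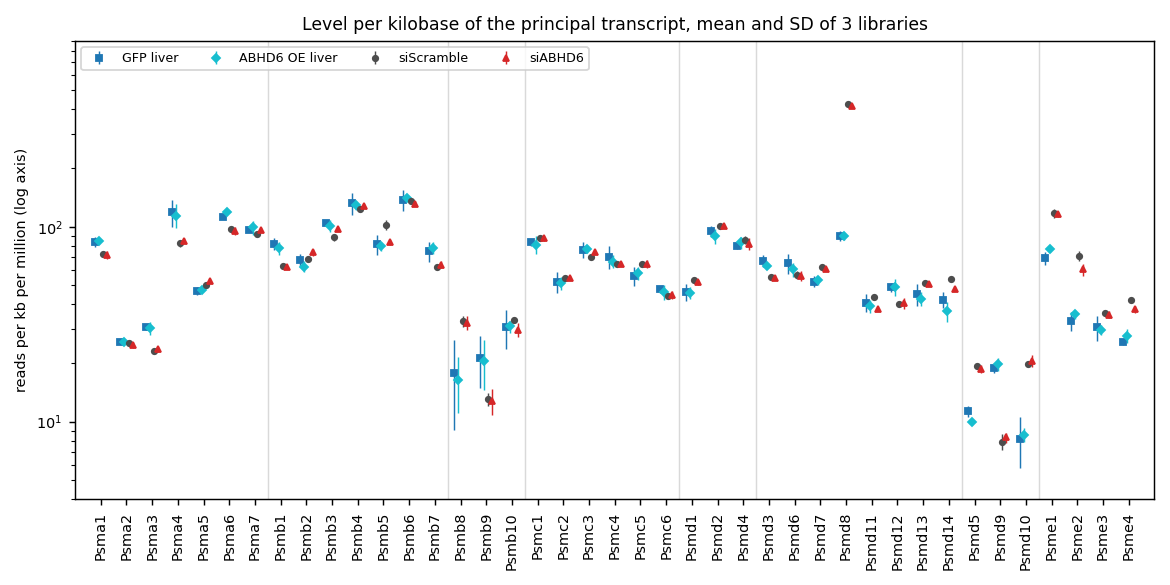
Level in CPM per kilobase of the principal transcript (vertical log axis) of each kept member in the 4 groups, as the mean and SD of 3 libraries. Psmd8 stands at 427.5 in siScramble cultures and 89.6 in GFP livers, while most members are close between the groups under this scaling by the trimmed mean. By library total most members were higher in cultures than in livers.

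The balance of immunoproteasome and constitutive transcripts was read as a share within each library, the immunoproteasome subunit over the sum of both, per table gene length. For Psmb8 with Psmb5 the share was 14.02%, 14.1% and 12.1% in siScramble and 15.3%, 17.3% and 14.4% in siABHD6 cultures. The groups did not overlap, and the difference of 2.25 percentage points had the smallest p possible (exact permutation test, two-sided p = 0.1). Psmb5 was the gene of the pair that was called. For Psmb10 with Psmb7 the share was 54.9%, 54.3% and 55.5% against 51.5%, 53.4% and 48.5%, a difference of -3.76 points (exact permutation test, p = 0.1). The level of a share depends on the length used, and with the principal transcript the means in siScramble and siABHD6 cultures were 24.3% and 27.8% for Psmb8 and 34.9% and 31.6% for Psmb10. For Psmb9 with Psmb6, by table length, it was 7.65% ± 0.433 against 7.77% ± 1.26 (SD, n = 3 each), and the groups overlapped.

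In livers all 3 shares overlapped between groups. For Psmb8 they were 6.73%, 7.70% and 13.7% in GFP and 11.7%, 6.08% and 9.18% in ABHD6 OE livers. Those of Psmb9 were 11.6% ± 1.76 and 11.1% ± 2.78, and those of Psmb10 47.9% ± 7.03 and 47.4% ± 0.377 (SD, n = 3 each). Between the control groups the Psmb9 share was lower in cultures by 3.94 points and the Psmb10 share higher by 6.96 points (exact permutation tests, p = 0.1 each), while the Psmb8 groups overlapped (difference 4.06 points, exact permutation p = 0.2). The Psmb10 groups nearly met, at 40.2%, 49.4% and 54.0% in GFP livers and 54.9%, 54.3% and 55.5% in siScramble cultures. Of that pair Psmb7 was called lower (log2 fold change -0.29) and Psmb10 was not called (0.09).

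**Figure D5:**
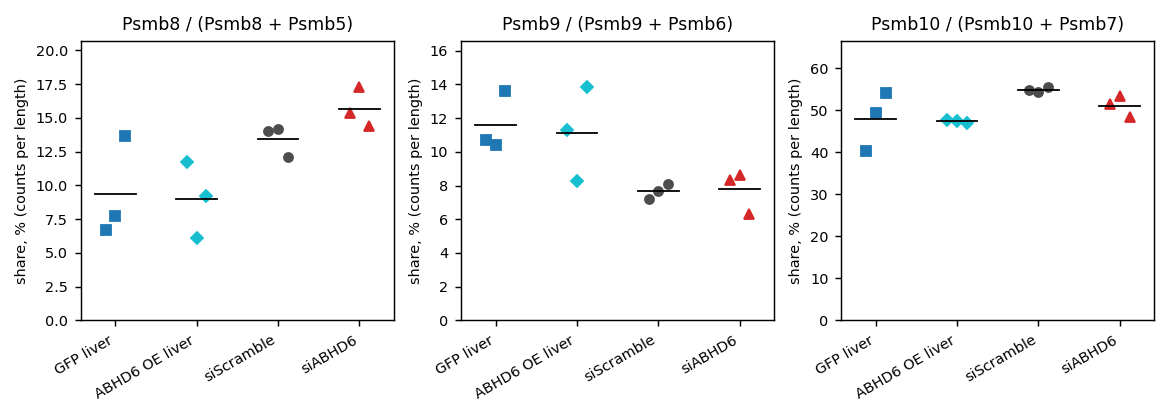
Share of the immunoproteasome subunit in its pair (vertical axes in percent, from 0) in the 4 groups, with 1 point per library and a line at the mean of 3. The Psmb8 points of siABHD6 cultures, at 14.4% to 17.3%, lie above those of siScramble cultures, at 12.1% to 14.1%, and the liver groups overlap in each panel.

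Genes that act with the proteasome were counted by list, to be read against the 7.61% of all genes called lower and the 7.81% called higher with siABHD6. With siABHD6, none of the 5 core assembly chaperones tested (the Psmg genes and Pomp) and none of 4 further parts (Adrm1, Sem1, Psmf1 and Ecpas) was called. Of 11 genes of ubiquitin processing and delivery, Ubqln1, a shuttle for ubiquitinated proteins, fell, with a log2 fold change of -0.19. Of 8 genes around Nfe2l1, Nfe2l1 itself fell by 0.12 on the log2 scale and its partner Mafk by 0.18, and Nfe2l2, the oxidative stress factor also called NRF2, rose by 0.19 (edgeR, adjusted p = 0.0324, 0.0430 and 0.000448).

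Genes that use proteasome products or share interferon as an inducer were also counted. Of 11 MHC class I presentation genes, 5 fell and 1 rose with siABHD6, with a list median of -0.10, where 7.61% of all genes tested were called lower and 7.81% higher. Tapbp, which loads peptide onto MHC class I, fell by 0.30, the trimming peptidase Erap1 by 0.21, and the MHC class I heavy chain gene H2-D1 by 0.20. Of 15 interferon factors and targets, 6 fell and none rose, with a list median of -0.23 against -0.00 over all genes. Rsad2, an antiviral enzyme, measured 153 ± 16.7 CPM in siScramble and 93.3 ± 20.5 in siABHD6 cultures, and Oasl2 136 ± 6.01 and 84.8 ± 12.8 (SD, n = 3 each). In the same libraries the interferon-inducible members Psmb8, Psmb9 and Psme1 had log2 fold changes of -0.04, -0.04 and -0.03 and were not called. The other interferon-inducible members, Psmb10 and Psme2, were called lower, at -0.18 and -0.24, with the limits given above for each. In livers no gene of these lists was called, where the test called 0 of all 13910 genes.

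Between the control groups, where 33.3% of all genes were called higher and 36.9% lower, 10 of the 15 interferon genes were higher in cultures and 2 lower. Oasl2 was highest by log2 fold change, at 3.48, and Irf8, a factor of myeloid cells and lymphocytes, lowest at -3.44. Of the core assembly chaperones, Psmg3, Psmg1 and Pomp were lower, with log2 fold changes of -1.19, -0.68 and -0.57, which under the library total became -0.37, 0.15 and 0.27, so that none of the 5 was then called lower and 3 were called higher. Around Nfe2l1, 3 genes were higher and 4 lower. Maff rose by 1.67 and Nfe2l2 by 1.40. Ngly1, an enzyme that processes the Nfe2l1 protein, and Mafg had log2 fold changes of -1.38 and -1.21. Nfe2l1 itself was not called, with a log2 fold change of -0.16. Of the delivery genes 3 were higher and 2 lower, and of the MHC class I genes 4 were higher and 3 lower. Under the library total, where 59% of all genes were called higher and 20.6% lower, the higher and lower counts were 13 and 1 for the interferon genes, 5 and 2 around Nfe2l1, 11 and 0 for delivery and 9 and 0 for MHC class I.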

How the data were processed

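Poly-A RNA was measured in 12 libraries, 4 groups of 3. The authors deposited raw counts per gene and FPKM values, with 0 columns left unmatched to a sample. HISAT2, DESeq2 and build mm39 appear in the submitters' processing notes, without versions. The deposited FPKM equalled the count over gene length and over a depth that was 0.671 to 1.27 times the library total. Coordinates of overlapping genes are those of the table.

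The 6 libraries of a comparison were fitted by themselves over all genes (edgeR 4.0.16, R 4.3.3): filterByExpr, TMM, the quasi-likelihood test and Benjamini-Hochberg adjustment, with calls at an adjusted p under 0.05. The standard error is the log2 fold change over the root of F. The fit was tested on simulated data. Sums of cell type markers use library totals. Principal transcript lengths came from GENCODE for an earlier build, joined by gene identifier. Shares were compared by exact permutation tests. limma 3.58.1 and DESeq2 1.42.0 were used for alternatives, and Python 3.11.15 with matplotlib 3.10.9 for promoters and figures.

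Members, lists and tests were chosen with earlier results of these data known. Values per library were given for the 6 called members of largest change per direction, otherwise the 3 of smallest p, and for the inducible subunits, their counterparts, Psme3, Psme4 and Abhd6. Psmb3 was chosen after its values were seen. Up to 4 called genes were named per pathway list. Results of 1 further list are not reported here. Alternatives were RLE, upper-quartile and library-total scaling, other filters on low counts, DESeq2, limma-voom, limma on FPKM, a fit over all 12 libraries, the replicate block and leaving out each library. Scaling to the core, summing of copies, joint omission of both livers and the principal length were added after seeing the data.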

Additional observations from a re-analysis of the deposited data

How the results depend on the processing

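In hepatocytes, deposited FPKM with a pseudocount of 1 or 0.1 left 3 members lower each, and a fit over all 12 libraries left 0. Leaving out each library gave 5 to 6 lower.

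Between the control groups, the higher and lower counts were 40 and 1 by library total (median 0.89), and 17 and 5 when scaled to the core (median 0.22). The lower count was 7 by upper quartile (median 0.14), 5 with no filter and 7 with the replicate block. Leave-one-out gave 6 to 14 higher and 5 to 12 lower. Under the library total 19 log2 fold changes turned above 0: Psma1 0.59, Psma2 0.78, Psma3 0.39, Psma4 0.29, Psma6 0.58, Psma7 0.74, Psmb1 0.42, Psmb2 0.83, Psmb3 0.55, Psmb4 0.71, Psmb6 0.80, Psmb7 0.53, Psmb9 0.13, Psmc3 0.68, Psmc4 0.69, Psmc6 0.69, Psmd3 0.52, Psmd6 0.61 and Psmd12 0.51.

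Shares without gene length differed by 4.29 (Psmb8, hepatocytes), 9.29 (Psmb8, controls) and -6.43 points (Psmb9, controls). The core median in GFP, ABHD6 OE, siScramble and siABHD6 was 29.7, 30.3, 45.9 and 48.1 by library total and 82.8, 81.7, 77.2 and 78.7 by principal length, against 39.4, 39.2, 34.9 and 37.0. The number of all genes called was 1313 and 1302 with FPKM and 41 over 12 libraries in hepatocytes, and 2, 8, 4 and 1 in livers with no filter, DESeq2, 12 libraries and both doubtful livers left out. Libraries with equal replicate numbers deviated together with correlations of -0.0005 to 0.024 in hepatocytes, -0.497 to 0.486 in livers and -0.011 to 0.016 between controls. With 3 libraries a group these values cannot decide whether equal numbers mark a pairing. The replicate block changed no member's call in hepatocytes, and in livers no member was called with or without it. The causes of these shifts were not tested.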
